A study of Homo sapiens with 9 samples.

Results

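The parental Ewing sarcoma line TC-71 was described from the 3 arrays whose titles name it, of 9 arrays in all. The other 6 arrays came from 3 lines derived from TC-71 and selected for resistance to agents against the insulin-like growth factor 1 receptor. Selection lasted 6 months and used rising doses of the kinase inhibitor NVP-AEW541 for TC/AEW (up to 5 µM), of the antibody AVE1642 for TC/AVE (up to 10 µg/ml) and of another antibody, figitumumab, for TC/CP. The 3 TC-71 samples had no exposure to these agents, and all cells grew in Iscove medium with 10% fetal bovine serum. The study calls the TC-71 samples biological replicates and the 2 arrays of each resistant line technical replicates. TC-71 is an established line from a single human tumour, so the samples share 1 genetic origin and no donor spread entered. The array file names carried a different year for each TC-71 sample, so the state of the culture, the time and the array run cannot be told apart in any difference between the samples. The question taken up here was what TC-71 cells express and how far 3 samples of the untreated line differ.

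Ewing sarcoma is a tumour of bone and soft tissue driven by a fusion of EWSR1 with an ETS family gene, most often FLI1. The fusion protein binds GGAA repeats, switches on a set of genes that includes NKX2-2, STEAP1, PRKCB and NR0B1, and holds down genes of mesenchymal cells. The amino acid response, also called the integrated stress response, is a general programme of mammalian cells. When amino acids run short or the endoplasmic reticulum (ER) is stressed, translation is slowed through eIF2 and the transcription factor ATF4 is made, which with CEBPG and DDIT3 switches on genes for amino acid synthesis, uptake and tRNA charging.

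ATF4 and its partners read a composite site known by the letters TGATGNAA. The letters were looked for because the amino acid response genes moved together in TC-71 sample 2. They were searched on both strands in RefSeq promoter windows (GRCh38.p14) from 250 bases before to 50 bases after the start of a gene. Of 38 amino acid response genes with a window, 16 held them (42.1%), as did 2.91% of the 11462 measured genes with a window and 4.46% of all 27305 genes with one. Of the 13 such genes in which sample 2 stood apart (defined below) and that had a window, 4 held the letters (30.8%), in these 250 bases upstream of the start. Capitals mark the match, which in CHAC1 lies on the reverse strand. The list was chosen as genes of this response, with earlier results of these data known. Its excess over other genes may thus come from that choice, and lends the pattern in sample 2 no support. The share among the genes with sample 2 apart was below that of the whole list. A match is a description of the letters, not a shown binding site.
ASNS (chr7:97872409-97872658, minus strand): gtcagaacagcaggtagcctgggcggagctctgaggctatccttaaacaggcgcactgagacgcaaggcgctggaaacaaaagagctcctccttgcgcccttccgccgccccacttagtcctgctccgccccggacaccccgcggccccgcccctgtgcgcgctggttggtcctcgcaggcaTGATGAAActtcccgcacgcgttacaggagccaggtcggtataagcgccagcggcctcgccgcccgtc
CHAC1 (chr15:40953221-40953470, plus strand): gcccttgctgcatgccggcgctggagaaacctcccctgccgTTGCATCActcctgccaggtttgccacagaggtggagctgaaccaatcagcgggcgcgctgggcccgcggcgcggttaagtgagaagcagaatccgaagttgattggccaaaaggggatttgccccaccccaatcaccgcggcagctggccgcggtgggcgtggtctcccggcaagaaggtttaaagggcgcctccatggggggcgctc
ATF3 (chr1:212565157-212565406, plus strand): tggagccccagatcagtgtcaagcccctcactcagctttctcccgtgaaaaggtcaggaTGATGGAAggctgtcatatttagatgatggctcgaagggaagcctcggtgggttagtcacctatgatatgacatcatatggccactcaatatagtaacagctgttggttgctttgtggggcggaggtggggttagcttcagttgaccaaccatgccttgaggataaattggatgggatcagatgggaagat
JDP2 (chr14:75427772-75428021, plus strand): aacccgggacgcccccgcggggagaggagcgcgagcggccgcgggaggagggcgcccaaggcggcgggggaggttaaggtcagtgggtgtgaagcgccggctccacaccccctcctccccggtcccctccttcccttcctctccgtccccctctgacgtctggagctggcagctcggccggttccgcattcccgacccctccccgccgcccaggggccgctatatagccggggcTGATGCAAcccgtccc
Counted from the start, the match begins at -68 in ASNS, -209 in CHAC1, -191 in ATF3 and -16 in JDP2. These genes lay in sample 2 at 12.62, 10.30, 9.71 and 7.91 on the log2 scale, each above samples 1 and 3 as given further on. The doubled ETS core GGAAGGAA was in 0 of the 5 windows of Ewing marker genes and in 4.65% of windows of measured genes.

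All levels are log2 values per probe set, as deposited, so a difference of 1 is 2-fold. Each gene was read by 1 probe set, and brightness depends on the probes, so the order of levels between genes is not an order of transcript abundance. Levels under 5 were taken as near background, and folds measured from them are lower bounds. A sample was said to stand apart in a gene when its gap to the nearest other sample was at least 1 and larger than the gap between the other 2, after values under 5 were set to 5. Each sample is 1 array, so a difference between samples has no replicate check and no test was made.

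The arrays had medians of 5.44, 5.40 and 5.41 in samples 1, 2 and 3 over all probe sets. Of 19775 genes in the table, 14382 reached 5 on at least 1 of the 3 arrays, 13009 of them on all 3, and 5393 (27.3%) were at background. The samples correlated at 0.962 (samples 1 and 2), 0.978 (1 and 3) and 0.983 (2 and 3) across these genes, which are not independent replicates. The ACTB probe sets near the 3 prime end exceeded those near the 5 prime end by 0.54, 0.32 and 0.73, and those of GAPDH by 0.13, 0.01 and 0.12. The ribosomal RNA probe sets read 6.32, 7.12 and 6.38 for 18S and 7.66, 8.31 and 7.62 for 28S, highest in sample 2. The poly-A spike-in dap read 5.95, 3.57 and 8.98, and the hybridisation spike-ins read 10.90, 10.53 and 10.29 on average. Sample 2 thus had the smallest 3 prime excess and the lowest poly-A spike-in signal. The part of these values in the differences below was not tested.

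The 5 measured genes that mark Ewing sarcoma read above background in every TC-71 sample. In none of these 5 did a sample stand apart, where 2.48% of all genes had a sample apart. CD99, a surface glycoprotein used to diagnose the tumour, read 12.83, 12.82 and 12.83 in samples 1, 2 and 3 (12.83 ± 0.01, SD, n = 3). It was among the 10 steadiest of the genes with a mean of at least 10. STEAP1, a membrane metalloreductase, read 11.99, 12.16 and 12.26 (12.14 ± 0.14). PRKCB, protein kinase C beta, read 11.13, 10.93 and 10.98 (11.01 ± 0.10). NKX2-2, a homeobox factor through which the fusion acts, read 9.26, 8.94 and 9.40 (9.20 ± 0.24). NR0B1 was not analysed here.

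FLI1, whose 3 prime part belongs to the fusion transcript, read 8.81, 8.81 and 9.49 (9.04 ± 0.40). Of the FLI1 probe sets above background, only this one was highest in sample 3. Another FLI1 probe set read 9.21, 8.84 and 8.86, and a further one 9.04, 8.66 and 8.44, both highest in sample 1. The SDs of FLI1 and NKX2-2 were above the median of 0.21 for genes with mean levels from 9 to 11. EWSR1, the other partner, read 10.72, 10.88 and 11.08. ERG, the alternative ETS partner, was below 5 by all its probe sets on the 3 arrays.

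No gene of the wider list of 29 measured EWS-FLI1-induced genes had a sample apart, where 2.48% of all genes had. None had a range of 2-fold, a range that 7.59% of all genes (1091) reached. The widest ranges were in NPY5R, a neuropeptide Y receptor (5.65, 6.63 and 5.98), ID2, an inhibitor of bHLH factors (11.26, 10.28 and 10.86), and LIPI, a lipase (7.09, 6.48 and 7.45). In these genes sample 2 was the highest for NPY5R and the lowest for ID2 and LIPI. Gastrin-releasing peptide GRP read 12.96, 13.05 and 12.99, caveolin CAV1 12.93, 12.74 and 12.86, and the kinase JAK1 12.66, 12.61 and 12.65. Cyclin D1, CCND1, was less steady, at 11.76, 10.99 and 11.88, lowest in sample 2.

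Of 19 genes in the table that the fusion is known to hold down, DKK1, SPRY1, CCN2 and IL6 were at background (21.1%, against 27.3% of all genes). The stem-cell and adhesion receptor CD44 read 5.16, 4.58 and 4.58, and IGFBP3, which binds insulin-like growth factors, read 5.04, 4.57 and 5.11. ANXA1, annexin A1, read 10.93, 11.88 and 11.07. The widest ranges were in the TGF-beta receptor TGFBR2 (6.32, 7.44 and 7.01), the nuclear receptor NR2F1 (5.36, 6.08 and 6.46) and the matrix glycoprotein TNC (5.03, 6.0 and 6.11), each lowest in sample 1.

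Tumour suppressors altered in some Ewing tumours gave a mixed picture. CDKN2A, which encodes p16 and p14ARF, read 5.33, 4.66 and 4.58, and its neighbour CDKN2B read 5.09, 4.34 and 4.16. Both lay within a narrow band around background, above 5 in sample 1 only. A second CDKN2A probe set, of the _x_at class prone to cross-hybridisation, read 6.67, 6.28 and 6.28. MTAP, an enzyme of methionine salvage beside CDKN2A, read 6.41, 6.36 and 6.81, and its other probe sets lay between 4.02 and 6.51. STAG2, a cohesin subunit, read 11.19, 11.48 and 11.32, and RB1 read 8.55, 8.99 and 9.36.

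**Figure D1:**
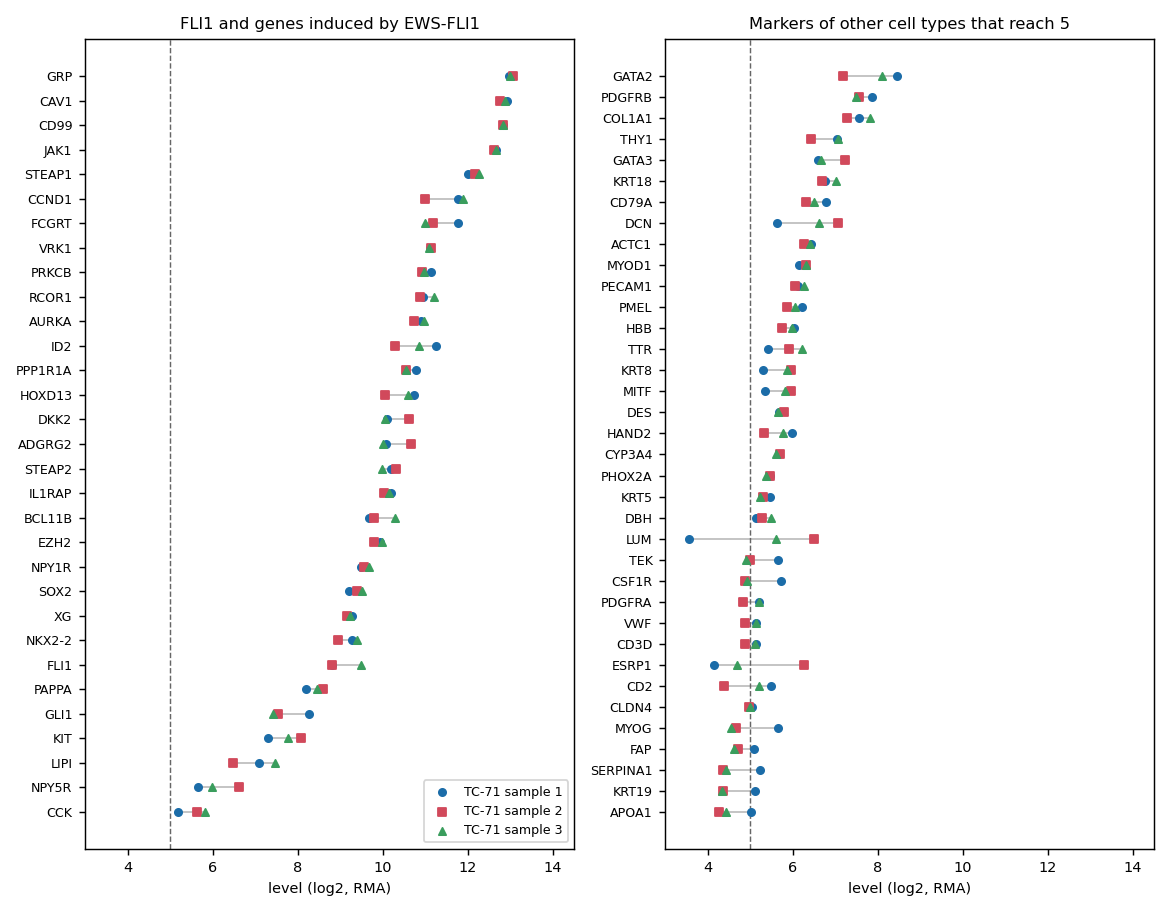
Levels (log2, RMA) of FLI1 and genes induced by EWS-FLI1 (left) and of those markers of other cell types that reach 5 on at least 1 TC-71 array (right). Points are single arrays of samples 1 to 3, the grey line joins their lowest and highest value, and the dashed line is the background level of 5; CD99 lies at 12.8 in all samples, while many markers of other cell types lie between 5 and 7.

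The brightest genes outside the ribosomal proteins were housekeeping genes. The 15 with the highest mean were COX1, ND4, COX2, ATP6 and ND2, which the mitochondrial genome encodes, the tubulins TUBA1B and TUBA1C, ACTB, GAPDH, TPT1, the chaperones HSPD1 and HSP90AA1, PABPC1, NPM1 and FTL. COX1, a cytochrome oxidase subunit, read 14.33, 14.44 and 14.40, and HSP90AA1, the last of the 15, read 13.63, 13.53 and 13.72. Ribosomal protein genes took 43 of the 100 brightest places. Of these 15, only ND2, at 14.11, 13.56 and 13.75, had an SD above 0.13. The 10 steadiest genes with a mean of at least 10 were LDHA, RPS3, DCAF13, POLR2K, RPS27, RPS28, PTTG1IP, CD99, TPT1 and PTGES3. LDHA, lactate dehydrogenase A, read 13.52 in all 3 samples.

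Of 57 markers of other cell types, 21 were below 5 on all arrays (36.8%, against 27.3% of all genes) and 8 reached 7 on at least 1 array by any probe set. Of 11 blood and immune markers, 6 were below 5 on all arrays (PTPRC, CD3E, MS4A1, CD14, LYZ and FCER1G) and none reached 7. Their mean level was 4.95, 4.71 and 4.95 in samples 1, 2 and 3. Below 5 as well were 4 of 7 endothelial markers (CDH5, KDR, TIE1 and EMCN) and 2 of 8 epithelial markers (EPCAM and CDH1). So were 4 of 8 muscle markers (MYH3, MYH8, CKM and MYF5), 2 of 6 of liver (ALB and APOB) and 2 of 4 of pigment cells (TYR and MLANA). The other members of these lists reached 5 on at least 1 array. Among them, the endothelial PECAM1 read 6.11, 6.06 and 6.26 and PMEL of pigment cells 6.23, 5.86 and 6.04. The muscle genes ACTC1 and MYOD1 read 6.44, 6.26 and 6.41 and 6.15, 6.30 and 6.31. KRT18, a keratin of simple epithelia, reached 7.02 in sample 3 (6.75, 6.69 and 7.02). CYP3A4, a drug-metabolising enzyme of the liver, reached 7.68 on a probe set not used for its level of 5.67, 5.71 and 5.60. Of 6 sympathetic neuroblast markers, 1 was below 5 on all arrays, TH, an enzyme of catecholamine synthesis. The transcription factors GATA2 (8.44, 7.18 and 8.09) and GATA3 (6.59, 7.22 and 6.67) reached 7 on at least 1 array. HAND2 read 5.98, 5.32 and 5.77. None of the 7 fibroblast markers was below 5 on all arrays, and their mean levels were 6.20, 6.51 and 6.49. PDGFRB read 7.86, 7.55 and 7.49, COL1A1 7.56, 7.27 and 7.80 and THY1 7.04, 6.43 and 7.05. In these bulk samples of a cell line, fewer cells that express a marker and less RNA per cell cannot be told apart.

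TC-71 samples 1 and 2 were the furthest apart of the 3. They differed by at least 2-fold in 911 genes (6.33%), samples 1 and 3 in 306 (2.13%) and samples 2 and 3 in 235 (1.63%). A difference of 4-fold was reached in 35, 5 and 22 genes. The 2 technical arrays of TC/AEW, of TC/AVE and of TC/CP, measured over the same genes, differed by 2-fold in 0 genes each, with largest differences of 0.77, 0.69 and 0.97. The median absolute difference was 0.31, 0.24 and 0.19 between the TC-71 pairs and 0.12, 0.07 and 0.07 between the technical arrays. The TC-71 samples thus lay further apart than repeat arrays of 1 line in these counts. Technical arrays give no measure of the spread between cultures.

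The median SD over the 3 samples was 0.21. It was 0.13 for the 915 genes with mean levels from 11 to 15 and 0.27 for the 4437 genes from 7 to 9. In 10112 genes (70.3%) the 3 samples lay within 1.5-fold of each other. Of the 1091 genes with a 2-fold range, 734 had no sample apart, and in 566 of these sample 3 lay in the middle. Sample 3 was thus most often between samples 1 and 2 where the samples were spread out.

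Sample 2 stood apart as higher in 133 genes (0.925%) and lower in 25 (0.174%), sample 1 as higher in 42 (0.292%) and lower in 145 (1.01%), and sample 3 as higher in 6 and lower in 6 (0.0417% each). A gap of 4-fold was reached in 17 genes higher in sample 2 and 3 genes of sample 3. The direction of the calls depended on scaling in sample 1. Its genes apart were higher in 22.5% as deposited, in 33.0% after cyclic loess and in 56.9% with each array centred on its median over genes. The share for sample 2 was 84.2%, 81.2% and 79.3% under these scalings, and for sample 3, with 12 genes or fewer, 50%, 41.7% and 36.4%. Of the genes 2-fold apart between samples 1 and 2, 76.6% were higher in sample 2 as deposited, 69.4% after loess and 51.9% when centred. Between samples 1 and 3, 75.2%, 65.2% and 42.7% were higher in sample 3, and between samples 2 and 3, 28.9%, 29.3% and 27.9%.

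**Figure D2:**
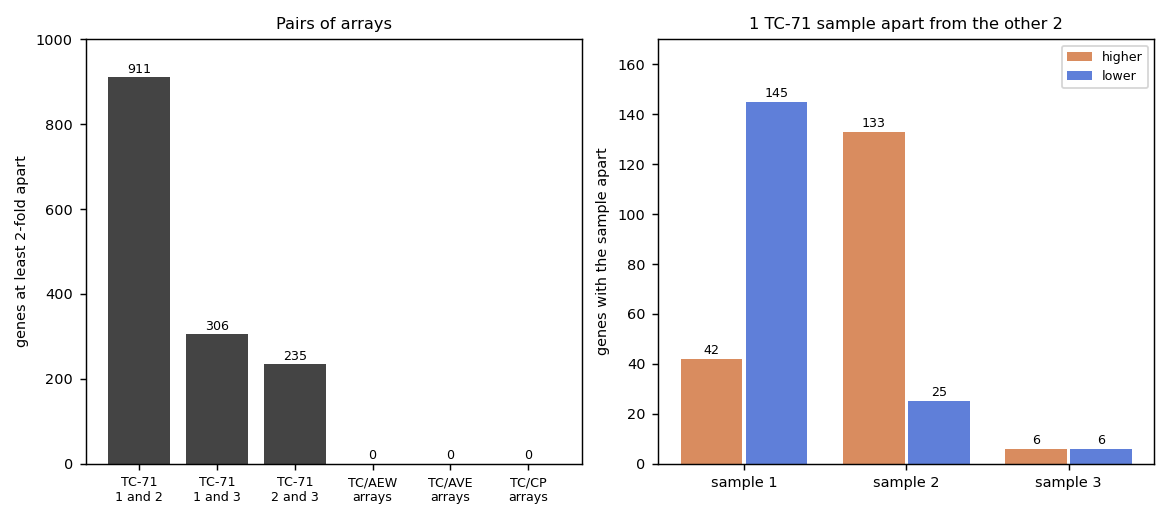
Left, number of genes at least 2-fold apart between pairs of TC-71 samples (dark bars) and between the 2 technical arrays of each resistant line (grey, 0 in each). Right, number of genes in which 1 TC-71 sample stood apart from the other 2, split by direction; sample 2 stands out on the higher side (133) and sample 1 on the lower side (145) in the values as deposited.

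The amino acid response had the largest share of genes with a TC-71 sample apart of the lists described. In 15 of 46 measured genes (32.6%) sample 2 was apart and higher, against 0.925% of all genes, and in 0 genes was sample 1 or 3 apart. Sample 2 was the highest of the 3 in 42 of the 46, sample 1 in 4 and sample 3 in 0, while over all genes sample 2 was highest in 32.4%. The median difference of sample 2 from the mean of the others was 0.77 in the list and -0.03 over all genes. For sample 1 it was -0.47 and for sample 3 -0.42 in the list. The list was written with this pattern known, so the counts describe these arrays and lend it no further support. The levels of GPT2 and MARS1 of the same list were not analysed here, while MARS1 counted among the genes whose promoter window held the letters.

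Among the transcription factors, the partners of ATF4 differed more than ATF4 itself. ATF4 mRNA, which is controlled chiefly at translation, read 12.67, 13.19 and 12.54 in samples 1, 2 and 3. DDIT3, also called CHOP, read 8.37, 11.42 and 8.46, so sample 2 lay 7.74-fold above sample 3, the nearer of the others. ATF3, a stress-induced repressor and activator, read 6.21, 9.71 and 6.98, a gap of 6.60-fold. JDP2, a bZIP repressor, read 5.95, 7.91 and 5.95 (3.89-fold). Samples 1 and 3 were alike for DDIT3 and JDP2, and sample 2 was well above both. CEBPG read 8.40, 9.81 and 9.0 and CEBPB 11.28, 11.86 and 11.05, both highest in sample 2 with gaps below 2-fold. NUPR1, at 6.07, 6.14 and 5.49, was nearly level in samples 1 and 2.

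Genes that brake growth or feed back on the response had sample 2 apart in 5 of 6. DDIT4, an inhibitor of mTORC1 also called REDD1, read 9.62, 12.83 and 9.93, a gap of 7.46-fold. SESN2, sestrin 2, which carries leucine sensing to mTORC1, read 7.65, 10.77 and 8.18 (6.03-fold). Both brakes on mTORC1 thus lay highest in sample 2, with samples 1 and 3 close together. CHAC1, which degrades glutathione, read 7.83, 10.30 and 6.80, a gap of 5.55-fold. TRIB3, a pseudokinase that restrains ATF4, read 9.01, 11.68 and 9.23. PPP1R15A, or GADD34, which reverses eIF2 phosphorylation, read 7.25, 8.61 and 7.0. Here too sample 2 was the highest, and for CHAC1 samples 1 and 3 also differed by about 1 on the log2 scale. EIF4EBP1, a translation repressor, read 11.71, 11.93 and 11.42, with no sample apart.

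Of 11 enzymes of amino acid and one-carbon metabolism, 3 had sample 2 apart and 10 were highest in it. CTH, which makes cysteine from cystathionine, read 7.84, 10.94 and 8.27 (6.37-fold). PCK2, the mitochondrial PEP carboxykinase, read 7.60, 10.25 and 7.07 (6.29-fold). ASNS, asparagine synthetase, whose promoter is printed above, read 10.33, 12.62 and 10.27. Sample 2 was far above in all of these genes. The serine pathway differed less, with PHGDH at 11.61, 12.21 and 11.69, PSAT1 at 11.43, 12.44 and 11.61, and PSPH at 9.47, 10.26 and 9.89. MTHFD2, of mitochondrial folate metabolism, read 12.05, 13.07 and 12.22. CBS, the step before CTH in making cysteine, went another way, at 11.65, 11.19 and 10.96, highest in sample 1.

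Among 9 amino acid transporters, 3 had sample 2 apart. SLC7A11, the cystine carrier of system xc-, read 9.30, 11.00 and 9.12 (3.26-fold). SLC7A3, a carrier of arginine and lysine, read 6.12, 7.66 and 6.40, and SLC6A9, a glycine carrier, read 6.45, 7.64 and 6.21. SLC3A2, the heavy chain that pairs with SLC7A11 and SLC7A5, read 10.08, 11.06 and 9.95, just short of a 2-fold gap. SLC1A5 and SLC1A4, carriers of glutamine and neutral amino acids, were highest in sample 1, at 11.11, 10.88 and 10.47 and at 12.04, 11.92 and 11.77. In no gene of tRNA charging and export was a sample apart, against 2.48% of all genes. All 10 measured were highest in sample 2, as were 32.4% of all genes. CARS1, for cysteine, read 11.02, 11.98 and 11.22, SARS1, for serine, 11.52, 12.47 and 11.60, and WARS1, for tryptophan, 11.18, 12.04 and 11.23.

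VLDLR, a lipoprotein receptor, gave the widest gap of the list. It read 4.92, 8.58 and 4.76, near background in samples 1 and 3, so sample 2 was at least 12-fold higher. INHBE, an activin subunit outside the list, read 4.02, 8.23 and 3.44, at least 9.38-fold higher in sample 2. STC2, stanniocalcin 2, read 7.09, 7.78 and 7.33, highest in sample 2 with no sample apart. FGF21, a hormone of the fasting response, stayed at 5.18, 5.02 and 4.98, near background in all samples.

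**Figure D3:**
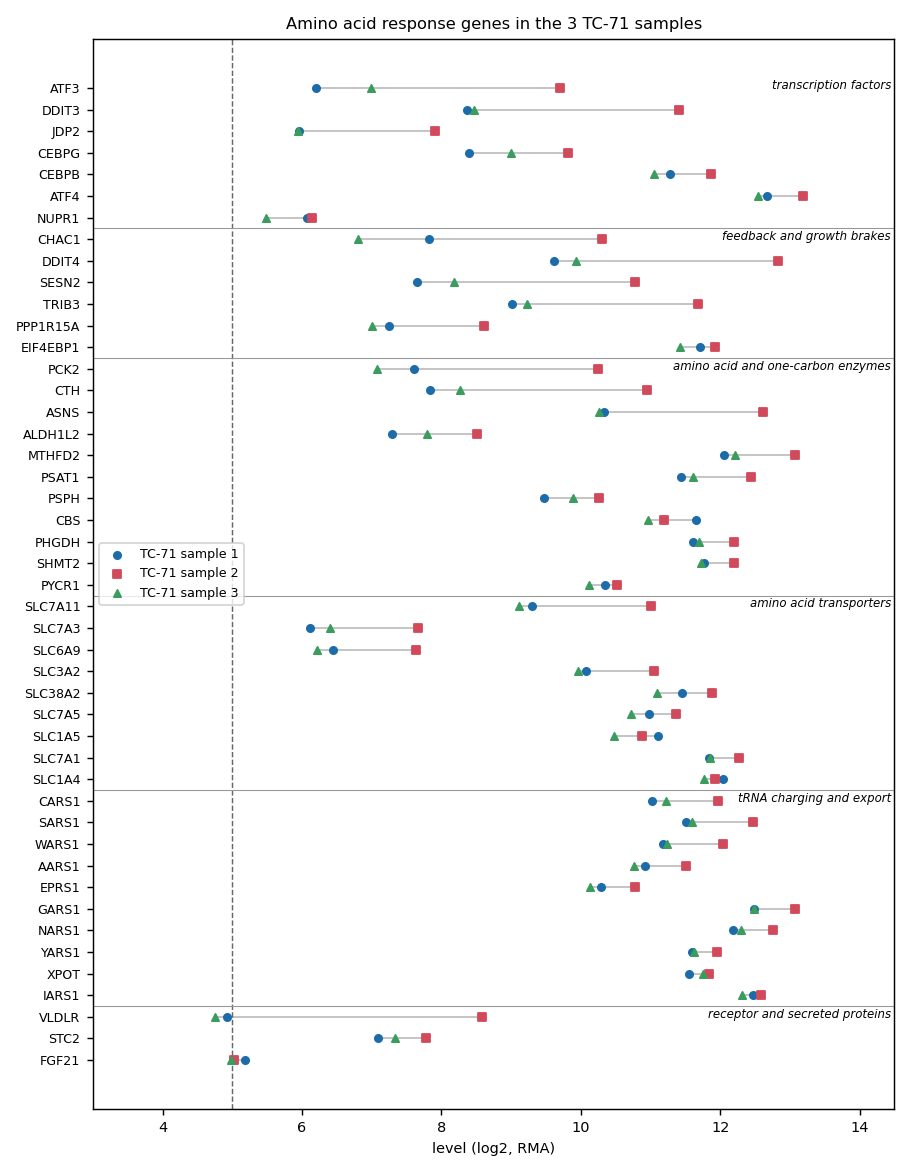
Levels (log2, RMA) of the 46 measured amino acid response genes, grouped by role and ordered by range within a role. Blue circles, red squares and green triangles are TC-71 samples 1, 2 and 3, and the dashed line is the background level of 5; sample 2 lies to the right in 42 genes, with the widest ranges in VLDLR, CHAC1, ATF3 and DDIT4.

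The list of ER chaperones and related genes did not share this pattern as a whole. Of 17 measured, only HERPUD1, a factor of ER-associated degradation, had a sample apart, at 9.50, 11.24 and 9.62. That is 5.88%, against 0.925% of all genes with sample 2 apart and higher. A 2-fold range was found in 4 (23.5%, against 7.59% of all genes), and sample 2 was highest in 5 (29.4%, against 32.4%). HSPA5, the chief chaperone BiP, read 12.46, 11.54 and 12.18, lowest in sample 2. HYOU1 at 11.50, 10.70 and 11.15 and MANF at 10.11, 9.28 and 9.88 were lowest in sample 2 too. XBP1, a transcription factor of the unfolded protein response, read 9.61, 10.37 and 9.27, and the sensor ERN1 read 6.27, 7.51 and 6.66, both highest in sample 2. CALR, calreticulin, read 9.12, 8.17 and 7.88, highest in sample 1. The list median difference of sample 2 from the others was -0.03, the same as over all genes.

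Other genes with sample 2 above were named after their values were seen. TXNIP, an inhibitor of thioredoxin and glucose uptake, read 8.39, 10.54 and 7.91 (4.41-fold). TSC22D3, or GILZ, a glucocorticoid-induced factor, read 7.53, 9.97 and 7.84, and CCNG2, a cyclin of cells leaving the cycle, read 6.37, 8.58 and 6.74. In each, samples 1 and 3 lay closer to each other than to sample 2. GDF15, a stress cytokine, read 4.72, 7.23 and 4.82, at least 4.68-fold higher in sample 2. ULBP1, a ligand of the NKG2D receptor of natural killer cells, read 5.11, 7.26 and 5.25, and the hormone SPX 8.21, 10.37 and 8.46. GDF15 and ULBP1 were near background outside sample 2, while SPX was present in all samples.

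Sample 2 was apart and lower in 25 genes, and the 6 with the widest gaps were in none of the gene lists. CDC25A, a phosphatase that drives entry into S phase, read 10.43, 8.75 and 10.28 (2.89-fold lower in sample 2). POLR1G, a subunit of RNA polymerase I, read 9.43, 7.97 and 9.37, and AEN, an apoptosis-enhancing nuclease, read 8.73, 7.29 and 8.61. Samples 1 and 3 lay close together in these genes. The microtubule protein MAP1A (9.36, 7.80 and 9.12), the protease ADAMTS15 (8.30, 6.56 and 7.85) and IQCE (6.65, 5.42 and 6.83) completed the rule's 6. With the median over a gene's probe sets, the gap was below 2-fold in CDC25A (-0.85), MAP1A (-0.75), ADAMTS15 (-0.73) and IQCE (-0.75). The cell-cycle factor E2F2, named like the next 3 genes after its values were seen, read 9.90, 8.62 and 9.67. The related coactivators of mitochondrial genes PPRC1 and PPARGC1B read 9.41, 8.34 and 9.47 and 7.21, 6.03 and 7.63. PAX7, a factor of neural crest and muscle precursors expressed in Ewing sarcoma, read 8.93, 7.85 and 8.94. None of the 26 proliferation genes had a sample apart, where 2.48% of all genes had, and their median difference in sample 2 was -0.21. CDC6 read 8.82, 7.97 and 9.09 and MKI67 10.36, 9.66 and 9.83, both lowest in sample 2, while TOP2A read 10.12, 11.09 and 10.85, lowest in sample 1.

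Neural genes stood near the background of all genes in both detection and samples apart. Of 42 in the table, 32 were measured, and 10 (23.8%, against 27.3% of all genes) were at background (MAP2, STMN2, SCG3, CHGA, CHGB, DCX, ELAVL4, GRIA2, LHX2 and NPY). In 0 of the 32 did a sample stand apart, against 2.48% of all genes, and 5 had a 2-fold range (15.6%, against 7.59% over all genes). The list medians differed from the mean of the other samples by -0.08, 0.09 and 0.01 in samples 1, 2 and 3. SCG2, secretogranin II of secretory granules, read 7.57, 9.22 and 8.38, and MAP1B, a microtubule protein of growing axons, read 9.31, 10.41 and 9.88. Both stood lowest in sample 1, highest in sample 2 and between in sample 3. PRPH, the neuronal filament peripherin, ran otherwise, at 11.40, 10.75 and 9.90, lowest in sample 3. The neurofilaments NEFL (8.75, 9.58 and 9.79) and NEFM (7.68, 8.34 and 8.65) and the homeobox factor ISL1 (6.60, 7.27 and 7.66) were lowest in sample 1 and highest in sample 3. SOX11 (10.35, 9.38 and 10.33) and the intermediate filament NES (6.85, 5.98 and 6.41) were lowest in sample 2. UCHL1 at 12.78, 12.95 and 12.76 and ROBO1 at 9.63, 9.77 and 9.72 were steady. SYT4, a synaptotagmin named after its values were seen, was apart in sample 1, at 5.87, 7.45 and 7.43.

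Matrix genes had 1 of 36 members with a sample apart, close to the 2.48% of all genes. Of 52 in the table, 36 were measured and 16 (30.8%, against 27.3% of all genes) were at background, among them COL1A2, POSTN, VCAN, TGFBI and CCN2. FN1, fibronectin, read 7.39, 8.72 and 7.61, a gap of 2.15-fold for sample 2. The 4 other kept FN1 probe sets also placed sample 2 above the mean of the other 2. The small proteoglycans LUM (3.55, 6.51 and 5.61) and DCN (5.62, 7.07 and 6.62) were lowest in sample 1 and highest in sample 2. COL3A1, a fibrillar collagen, read 6.67, 7.97 and 7.08, and COL5A2 read 9.72, 10.71 and 10.26, in the same order. COL16A1, a fibril-associated collagen, read 8.88, 7.81 and 8.32, and COL9A3 read 7.04, 6.06 and 6.01, both highest in sample 1. In all, 7 of the 36 had a 2-fold range (19.4%, against 7.59% over all genes). TIMP1, an inhibitor of matrix proteases, read 13.13, 13.07 and 13.04, and SPARC 9.33, 9.41 and 9.34. LUM and DCN are themselves fibroblast markers, of which the mean level was 6.20, 6.51 and 6.49. Their part in the matrix differences was not tested.

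**Figure D4:**
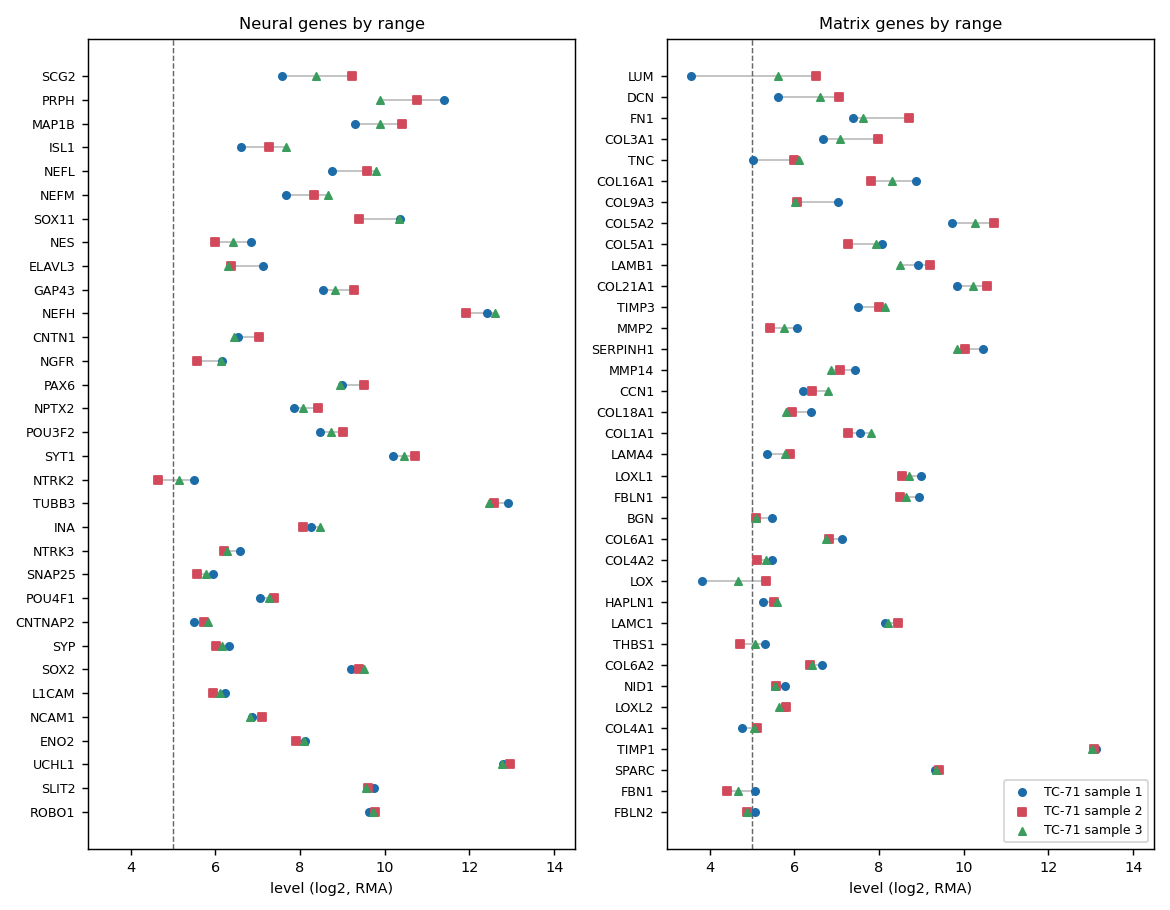
Levels (log2, RMA) of the 32 measured neural genes (left) and 36 measured matrix genes (right), ordered from the widest range down. Blue circles, red squares and green triangles are TC-71 samples 1, 2 and 3, and the dashed line is the background level of 5; the order of the samples differs from gene to gene, as in SCG2 (sample 2 highest) and PRPH (sample 1 highest).

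Sample 1 had the most genes apart on the lower side, with gaps below 4-fold after values under 5 were set to 5. B3GALNT1, a glycosyltransferase that makes globoside, read 4.86, 7.13 and 6.96, at least 3.90-fold lower in sample 1, and its 2 other kept probe sets also placed sample 1 below. EPS8, a regulator of actin, read 4.92, 6.92 and 7.14, and NAP1L3, a nucleosome assembly protein, read 4.56, 7.34 and 6.90. Samples 2 and 3 were alike in each of these genes. FAM169A (5.34, 7.71 and 7.21), the monocarboxylate carrier SLC16A7 (4.83, 6.74 and 6.65) and the cleavage factor CSTF2T (5.53, 7.16 and 7.50) were the next. On the higher side the genes were SAMD11 (10.22, 8.13 and 8.67), the transporter SLC6A16 (6.77, 5.32 and 5.18), PRRC2A (10.47, 8.76 and 9.03), the apolipoprotein APOL2 (8.59, 7.16 and 7.12), LOC284600 (6.82, 5.15 and 5.41) and the tropomyosin TPM4 (10.44, 9.08 and 8.95). The gap was below 2-fold in TPM4 (0.05), PRRC2A (0.90) and SLC6A16 (0.95) with the median over probe sets. With a floor of 6 it was below 2-fold in B3GALNT1 (-0.96), EPS8 (-0.92), NAP1L3 (-0.90), SLC16A7 (-0.65), SLC6A16 (0.77) and LOC284600 (0.82). With no floor it was past 4-fold in B3GALNT1 (-2.11) and NAP1L3 (-2.34). FASN, the fatty acid synthase, was the only gene of 18 in sterol and lipid synthesis with a sample apart, at 11.68, 10.13 and 10.63, where sample 1 was apart and higher in 0.292% of all genes.

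Centring the arrays cut the genes apart and lower in sample 1 from 145 to 81, and lengths were taken only for the 145. These genes, called in the values as deposited, were long. Their median length on the genome was 51.4 kb (quartiles 22.3 and 107 kb, 145 genes), against 26.5 kb over all measured genes (9.98 and 66.3 kb), 19.3 kb for the genes higher in sample 1, and 23 and 26 kb for those higher and lower in sample 2. By chromosome, the median difference of sample 1 from the others ran from -0.21 on chromosomes 4 and 18 to 0.12 on chromosome 19 and 0.10 on chromosome 22, where all genes gave -0.03. These sizes moved with the processing. With arrays centred, chromosomes 4 and 18 were at -0.07, chromosome 19 at 0.25 and chromosome 22 at 0.24. With a floor of 6, chromosome 4 was at -0.14, chromosome 18 at -0.13, chromosome 19 at 0 and chromosome 22 at 0.01. Sample 2 ran the other way, at 0.11 on chromosome 4, 0.10 on chromosome 18 and -0.13 on chromosome 22. The values of samples share each other's mean, so these opposite signs carry no separate information.

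Sample 3 had few genes apart, and probe sets of a gene disagreed in some. HINT3, a histidine triad hydrolase, read 5.46, 5.12 and 8.99, 11.5-fold higher in sample 3. Another HINT3 probe set read 4.60, 4.26 and 6.55, while the last read 5.17, 7.01 and 6.99, level in samples 2 and 3. NCKAP1L, or HEM1, a WAVE complex subunit of blood cells, read 11.47, 11.48 and 9.03, but its other probe sets read 9.48, 8.98 and 9.12 and 9.37, 9.07 and 9.36. The wide gap of sample 3 thus held on 1 of 3 NCKAP1L probe sets. RAC3, a small GTPase, read 8.45, 8.80 and 6.31 (4.39-fold lower in sample 3), DAPK1-IT1 7.83, 7.79 and 6.32, and ASS1, argininosuccinate synthase, 10.62, 10.83 and 9.30. EGR1, an immediate early factor, read 8.99, 9.72 and 7.84, lowest in sample 3, while another EGR1 probe set read 7.87, 8.58 and 7.91, level in samples 1 and 3. RUFY2 read 7.71, 7.71 and 6.62. On the higher side were NEXMIF (7.60, 7.52 and 8.81), the helicase MCM9 (5.85, 5.91 and 6.99), CMPK2 (5.23, 5.16 and 6.29), RP2 (5.87, 6.03 and 7.03) and ERGIC1 (6.99, 7.14 and 8.15). With the median over probe sets, the gap was below 2-fold in EGR1 (-0.03), RUFY2 (-0.19), ERGIC1 (0.24), MCM9 (0.53) and NEXMIF (0.96), and with a floor of 6 in CMPK2 (0.29) and MCM9 (0.99). With arrays centred it was below 2-fold in MCM9 (0.99) and CMPK2 (0.92), and after cyclic loess in RP2 (0.98).

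Where a gene apart had other kept probe sets, these mostly placed the same sample on the same side of the mean of the other 2. A difference of any size counted, and the sample did not need to be the highest or lowest. The HINT3 probe set that was level in samples 2 and 3 counted so. All other kept probe sets of a gene were on the same side in 57 of 74 genes higher and 11 of 12 lower in sample 2. In sample 1 this held in 17 of 25 genes higher and 58 of 78 lower, and in sample 3 in 4 of 4 higher and 1 of 3 lower.

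The remaining counts of genes with sample 2 apart are read against the 0.925% of all genes in which it was apart and higher. Interferon-response genes had 2 of 17 with sample 2 apart (11.8%), IFIT1 (5.99, 7.32 and 6.30) and IFI35 (5.85, 6.89 and 5.86), and 13 were highest in sample 2, with a median difference of 0.46. Of the 24 interferon-response genes in the table, 7 were at background in all samples, where 27.3% of all genes were. Among these 7 were MX1, OAS2, IFIH1, IFI27 and IFI44L. Of 26 hypoxia and glycolysis genes, only the glucose transporter SLC2A3 (3.85%) had sample 2 apart, at 5.80, 7.17 and 6.17, and VEGFA read 10.03, 11.22 and 10.54. Among 8 histones, H2AC6 alone (12.5%) was apart in sample 2, at 6.64, 8.48 and 7.27. Of the IGF axis, IGF1R, the target of the agents used to select the resistant lines, read 9.25, 9.40 and 9.26 and IRS2 12.08, 11.92 and 12.05, both steady. IGFBP4 (7.56, 6.31 and 7.0) and IRS1 (6.32, 7.10 and 7.54) had the widest ranges of its 12 genes. In 0 of 8 heat shock genes did any sample stand apart in either direction, against 2.48% of all genes. The co-chaperone DNAJB1, the widest in range, read 8.95, 8.11 and 9.11. KLF2 (6.15, 7.93 and 6.94) and DUSP6 (8.07, 9.15 and 8.21), induced early by growth signals and stress, were highest in sample 2. ESRP1, an epithelial splicing regulator, was the 1 marker of another cell type with a sample apart, at 4.15, 6.26 and 4.69. Of the 8 epithelial markers in the table, EPCAM and CDH1 were below 5 in all samples. The other 6 reached 5 on at least 1 array, among them KRT8 at 5.31, 5.97 and 5.87. Ribosomal protein genes were the steadiest list, with a median SD of 0.06 over 52 genes.

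**Figure D5:**
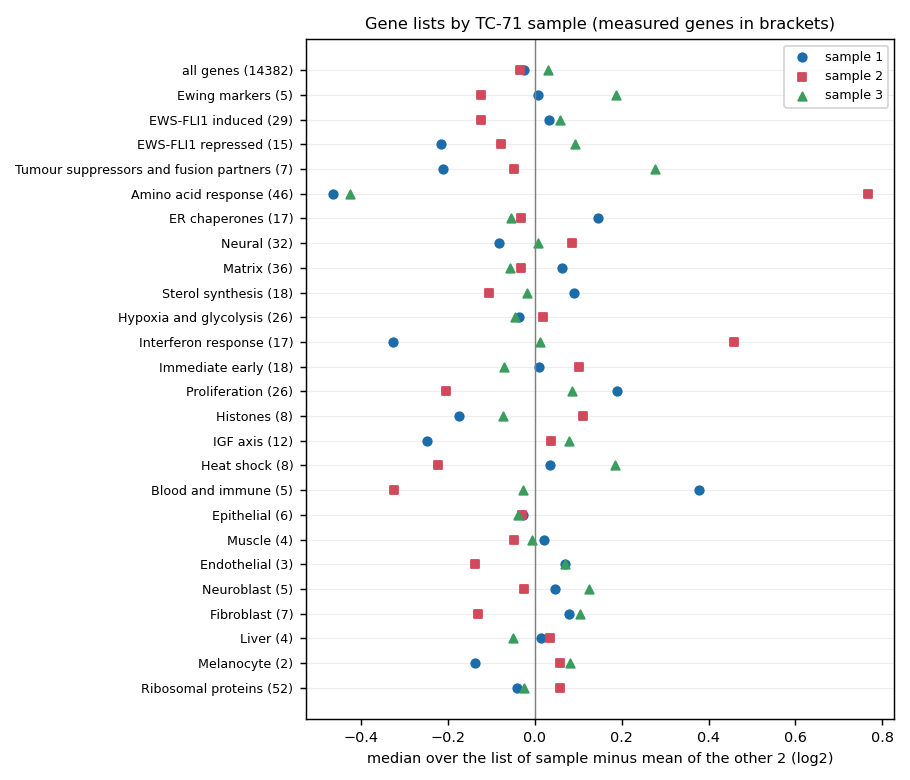
Median over each gene list of the difference of a TC-71 sample from the mean of the other 2 (log2), for samples 1 (blue circles), 2 (red squares) and 3 (green triangles), with the number of measured genes in brackets and all genes in the first row. The amino acid response lies furthest to the right in sample 2 (0.77), followed by the interferon response (0.46).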

How the data were processed

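RNA from 3 TC-71 samples, 1 array each, was hybridised to Affymetrix HG-U133 Plus 2 arrays. TRIzol RNA, 2 µg, was labelled with biotin, per the labels' protocols. The authors deposited log2 expression values per probe set, made with RMA in affy, per the submitters' processing notes (no versions are given in the sources used here). RMA fits all arrays together, so the values of 1 sample depend on the others, and it compresses low levels.

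The 62 control probe sets were set aside. Of the other 54613, 41091 carried 1 gene symbol in the platform annotation, 41037 of them found in RefSeq (GRCh38.p14, 0 symbols updated). Probe sets with several symbols (1801) or none (11721) were not named. A probe set was kept at 5 or more on 1 of the 3 arrays (27251). Each gene was read by the kept probe set brightest on average over these arrays, and an _x_at probe set only where there was no other (462 genes). Differences, gaps and counts used values floored at 5, and printed levels and SDs are unfloored. The rule for standing apart is given in the text, and its calculation was checked on simulated data. The simulated noise was smaller than the spread between these samples. The check therefore gives no rate of false calls for these arrays. The number of arrays limits the precision, and no p-value was computed because each sample is 1 array. The resistant lines entered only as differences within a pair of technical arrays.

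Named genes were 5 Ewing markers, the 15 brightest outside ribosomal proteins, the 6 widest gaps per sample and direction, the 8 widest ranges of the amino acid, neural and matrix lists and the 3 widest of the others, tumour suppressors and fusion partners, other cell types' markers at 7 or more, and the 10 steadiest genes. Further members of the lists are given as examples. XIST and Y-linked genes are not named and were left out where the probe sets of a gene were compared. The members and the 26 lists (521 genes, 57 not in the table) were chosen with earlier results of these data known, and 1 list is not reported here. Alternatives covered the floor, the filter, the probe set per gene, scaling (cyclic loess in limma 3.58.1, R 4.3.3, and centring on medians) and leaving out a sample. Tables were made with Python 3.11.15, pandas 2.3.3 and numpy 2.4.6.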

Additional observations from a re-analysis of the deposited data

How the results depend on the processing

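The counts of genes 2-fold apart between TC-71 samples, and the 15 amino acid response genes with sample 2 apart (10 to 21 over the alternatives), stayed within 1.5 times of the values given under all 8 alternatives run. With arrays centred on their medians, sample 1 was apart as higher in 107 genes (42 as deposited) and as lower in 81 (145), after shifts of 0.10, -0.05 and -0.05 in samples 1, 2 and 3. With the median over a gene's probe sets, sample 2 was apart as lower in 15 genes (25), and the gap of NCKAP1L in sample 3 turned from -2.44 to 0.0467. Genes at background numbered 8278 with a filter of 6 on 1 array and 8365 without _x_at and _s_at probe sets (5393). With no floor, 1 gene was 2-fold apart between the TC/CP arrays. The median SD of 0.21 lay between 0.13 (without sample 1) and 0.22 (without sample 3) when a sample was left out. Without sample 2, the amino acid list's median difference in sample 1 was 0.00. Counts of samples apart need all 3 samples and have no such value. Of 36 genes named for standing apart, 16 stayed past the threshold under every alternative that gave them a value. Of 273 such values, 248 stayed past it, 24 did not and 1 reversed, and the cause was not tested. TPM4, EGR1, RUFY2 and ERGIC1 were among those lost with the median over probe sets (gaps of 0.05, -0.03, -0.19 and 0.24).

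No paired analysis was possible because each TC-71 sample is 1 array and the results come from no test. The 3 samples cannot show how often TC-71 cultures differ in this way. Levels near 5 were not separated from background, and the blood marker HBB read 6.02, 5.74 and 5.98.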

Other observations

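Probe sets with no gene symbol or several were outside the comparisons. Of 6172 that reached 5 on at least 1 TC-71 array, 598 had a 2-fold range. Sample 1 was apart as higher in 70 and lower in 43, sample 2 as higher in 81 and lower in 10, and sample 3 as higher in 5 and lower in 38. Sample 1 thus had more unnamed probe sets apart on the higher side than on the lower, while its named genes apart were mostly lower in the deposited values (42 higher and 145 lower).

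Further genes in which a sample stood apart were looked up after their values were seen. AKNA, a protein of centrosomes and microtubules, read 6.59, 8.58 and 6.43 in TC-71 samples 1, 2 and 3. RAB39B, a neuronal small GTPase, read 4.70, 7.37 and 4.76, at least 5.17-fold higher in sample 2. CYP26B1, which degrades retinoic acid, read 9.51, 8.08 and 9.14, lowest in sample 2.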
